A study of Papio anubis with 767 samples.

Results

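The pituitary, the gland that releases hormones under instruction from the hypothalamus, was compared with the arcuate nucleus, the hypothalamic nucleus just above its stalk, in the same 12 baboons. The members were chosen by tissue label and sampling time: 12 libraries labelled Pituitary and 12 labelled Arcuate nucleus, 24 of the 767 libraries in an atlas of 64 tissues. The 2 libraries of 1 sampling time come from 1 animal, per the labels, and were compared as a pair. The 6 pituitary libraries of the light phase (ZT0 to ZT10) were then compared with the 6 of the dark phase (ZT12 to ZT22), where ZT, zeitgeber time, counts hours from lights on.

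Both groups came from the same untreated male animals, labelled Papio anubis hamadryas, aged 5 to 6 years and weighing 7 to 11 kg, kept under lights that were on for 12 h and off for 12 h, with meals at 9:00 and 15:00. One animal was sampled every 2 h from ZT0 to ZT22, after a lethal dose of sodium pentobarbital and perfusion with an ice-cold solution. Because each time point is 1 animal, time of day and animal cannot be told apart at any single point, and a contrast between phases sets 6 animals against 6 others. The brain structures were punched from sections, which limits how cleanly a small nucleus was taken. How the pituitary was dissected, and whether its lobes were separated, is not given in the sources used here. Polyadenylated RNA was sequenced from bulk tissue, so fewer cells of a type and less RNA per cell cannot be told apart.

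The anterior pituitary holds cells that each make 1 main hormone: prolactin, growth hormone, thyrotropin, adrenocorticotropin or the gonadotropins. Neurons of the hypothalamus, many of them in the arcuate nucleus, release small factors into portal blood that reach these cells and switch secretion on or off, and the hormones of the target glands feed back on both levels. The posterior pituitary is different tissue, made of axons from hypothalamic neurons and of glia-like pituicytes, and the intermediate lobe cuts the precursor POMC into melanotropic peptides. In mammals the arcuate nucleus also senses hunger and satiety through neurons that make AGRP and NPY or POMC.

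Levels are FPKM, fragments scaled to gene length and library depth, as deposited by the authors, a scale on which levels of different genes can be set side by side. Reads assigned to genes numbered 4239644 to 9655282 in the pituitary libraries and 2836829 to 7883232 in the arcuate libraries. Differences are pituitary minus arcuate on the log2(FPKM + 0.5) scale, with the standard error (SE) over 12 animals and limma's p-value adjusted over all 14898 rows tested. A row was called at an adjusted p under 0.05. On this scale a difference for a gene at or near 0 in one tissue depends on the added 0.5, and its size is not a bound.

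Some libraries stood apart, and the results that rest on them are given with and without them. The median level of the hormone genes in the pituitary library of ZT4 was 0.00115 of the median over the pituitary libraries, that of ZT22 was 0.00795 of it and that of ZT16 was 0.0631 of it. The next lowest, ZT2, stood at 0.504. The libraries of ZT4, ZT16 and ZT22 were thus set apart by the hormone genes themselves. Refits of those genes without them describe the remaining libraries and do not test the genes. The pituitary library of ZT4 held 4014 FPKM of GFAP, the intermediate filament of astrocytes, and 347 FPKM of MOG, a glycoprotein of the myelin surface. Its closest library among all 767 was the medial globus pallidus of ZT2, with a correlation across 15511 rows of 0.925, against a median of 0.786 with libraries of its own label. The other 11 pituitary libraries were closest to another pituitary library. The pituitary libraries of ZT2, ZT10, ZT16 and ZT22 held pituicyte and tanycyte genes at a summed level of 1705, 528, 2386 and 1136 FPKM. That sum was 74.5 FPKM at ZT14, 93.3 FPKM at ZT18 and 3.16 to 10.5 FPKM in the remaining pituitary libraries. A single gene, CRYM, made up most of the sum at ZT2, ZT10, ZT16 and ZT22. The median gene of the list read 21.0, 14.1, 19.5 and 25.9 FPKM there. It read 2.46 FPKM at ZT14, 2.31 at ZT18 and at most 0.195 in the remaining ones. The arcuate libraries held the same list at a summed level of 163 to 1124 FPKM. The part of the libraries that stood apart in each result was not tested beyond the refits without them. In the arcuate nucleus, 9 libraries were closest to another arcuate library and 3, those of ZT10, ZT14 and ZT16, to a ventromedial hypothalamus library. By the 200 genes that separate the animals in other tissues, 23 of the 24 libraries matched their labelled animal and the arcuate library of ZT4 matched the animal of ZT6. Its correlation was -0.15 with the animal of ZT4 and 0.55 with that of ZT6, and its column header carries 'approx'. It was kept under its label, so counts of animals and pairs go by the labels.

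The hormone genes were far higher in the pituitary. Of 8 listed, 6 had a row of their own symbol, 5 were called higher and POMC was not, against 16.6% of all rows tested called higher in the pituitary and 43.3% called lower. Growth hormone and prolactin messages were nearly absent from the arcuate nucleus, and POMC, which arcuate neurons also make, was the hormone gene with the closest levels in the 2 tissues. Their median log2 difference was 5.51, beside a median of -0.33 over all rows. Genes that passed the level filter only through one of the tissues had to differ between them, so this count and those below describe the lists and support nothing further. LHB and GH2 were not analysed here.

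Growth hormone, GH1, ran in the pituitary at 62207 FPKM at ZT0, 1352 at ZT2, 21.5 at ZT4, 24840.4 at ZT6, 46099 at ZT8, 1608 at ZT10, 30552 at ZT12, 9306 at ZT14, 255 at ZT16, 27188 at ZT18, 39499.6 at ZT20 and 56.4 at ZT22. No arcuate library held more than 0.555 FPKM of it, so the tissues did not overlap even at ZT4. Its log2 difference was 12.84 ± 0.98 (SE, n = 12 animals, limma adjusted p = 9.9e-08), higher in 12 of 12 animals. Over all rows tested, 3.28% were higher and 17.4% lower in the pituitary in 12 of 12 animals. Over the 12 libraries of each tissue, 5751240 reads were assigned to GH1 in the pituitary and 11 in the arcuate nucleus. GH1 belongs to a cluster of near-identical genes, and how the authors' counting split reads among them is not given in the sources used here.

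Prolactin, PRL, the milk hormone, stood at 36135 FPKM at ZT0, 3615 at ZT2, 14.03 at ZT4, 10111 at ZT6, 14785 at ZT8, 3856 at ZT10, 11058 at ZT12, 25197 at ZT14, 658 at ZT16, 21622 at ZT18, 14256 at ZT20 and 11.5 at ZT22. The 3 lowest libraries are those that stood apart, and the lowest of the rest were ZT2 and ZT10, which carried pituicyte and tanycyte genes. A single read of PRL was assigned in all 12 arcuate libraries, against 1788940 in the pituitary. Its log2 difference was 12.57 ± 1.00 (limma adjusted p = 1.4e-07) and 14.59 ± 0.32 without the animals of ZT4, ZT16 and ZT22.

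The thyrotropin subunit TSHB reached 7343 FPKM at ZT14 and 7072 at ZT10 in the pituitary, fell between 372 and 5384 FPKM in 7 other libraries, and read 2.23, 15.9 and 7.41 FPKM at ZT4, ZT16 and ZT22. In the arcuate nucleus it ranged from 0.286 FPKM at ZT16 to 128 FPKM at ZT20, above the 3 low pituitary libraries. Its log2 difference was 6.22 ± 1.03 (limma adjusted p = 0.00012), higher in 11 of 12 animals. CGA, the alpha subunit shared by thyrotropin and the gonadotropins, had a pituitary median of 4979.8 FPKM, with a lowest value of 4.64 at ZT4 and a highest of 8879.7 at ZT12. Its arcuate level spread from 0.348 FPKM at ZT16 to 679 FPKM at ZT8, and the log2 difference was 4.80 ± 0.88 (limma adjusted p = 0.00029). FSHB, the follitropin subunit, was the least abundant hormone gene, with 0.0639 FPKM at ZT4, a median of 39.5 and 804 FPKM at ZT20, against 0 to 19.5 FPKM in the arcuate nucleus. It was higher by 4.51 ± 0.62 on the log2 scale (limma adjusted p = 2.3e-05).

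POMC, the precursor of adrenocorticotropin and the melanocortins, read 694 FPKM at ZT0, 5767 at ZT2, 1.35 at ZT4, 1927 at ZT6, 1772 at ZT8, 1966 at ZT10, 698 at ZT12, 833 at ZT14, 882 at ZT16, 315 at ZT18, 368 at ZT20 and 243 at ZT22. The arcuate libraries held 124 to 576 FPKM, with a median of 271, so the tissues overlapped. POMC was higher in the pituitary in 9 of 12 animals, and its log2 difference of 1.12 ± 0.72 did not pass the test (limma adjusted p = 0.20). Without the animals of ZT4, ZT16 and ZT22 it was 2.17 ± 0.41 (limma adjusted p = 0.00071). That refit is no test of POMC, because POMC was among the genes whose low levels set those libraries apart. Read weighting with voom over 12 animals, which also rescaled the libraries, called POMC, at 1.60 (adjusted p = 0.045). Unlike PRL and GH1, POMC kept 882 FPKM at ZT16 and 243 FPKM at ZT22, libraries rich in pituicyte and tanycyte genes. TBX19, the factor that drives POMC in corticotropes and melanotropes, did too, at 20.2 and 34.4 FPKM.

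Together the 6 hormone genes took 26.5% of assigned reads in the pituitary library of ZT0 (95% Wilson interval 26.4 to 26.5%), 21.9% at ZT8 and 14.4 to 16.6% at ZT6, ZT12, ZT18 and ZT20. Their share was 8.48% at ZT14, 3.98% at ZT10 and 2.47% at ZT2. It was 0.497% at ZT16 (0.491 to 0.503%), 0.0968% at ZT22 (0.0939 to 0.0998%) and 0.0123% at ZT4 (0.0114 to 0.0133%). The arcuate share was 0.0256 to 0.172%, so ZT22 lay inside that range, ZT4 below it and ZT16 above it. These intervals cover counting error only. Set against all 64 tissues, the pituitary had the highest mean of PRL, GH1, TSHB, CGA and POMC. The second-highest tissue was the pineal gland for PRL (95.3 FPKM), GH1 (305 FPKM) and TSHB (36.2 FPKM), the mammillary body for CGA (195 FPKM) and the arcuate nucleus for POMC (285 FPKM).

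**Figure D1:**
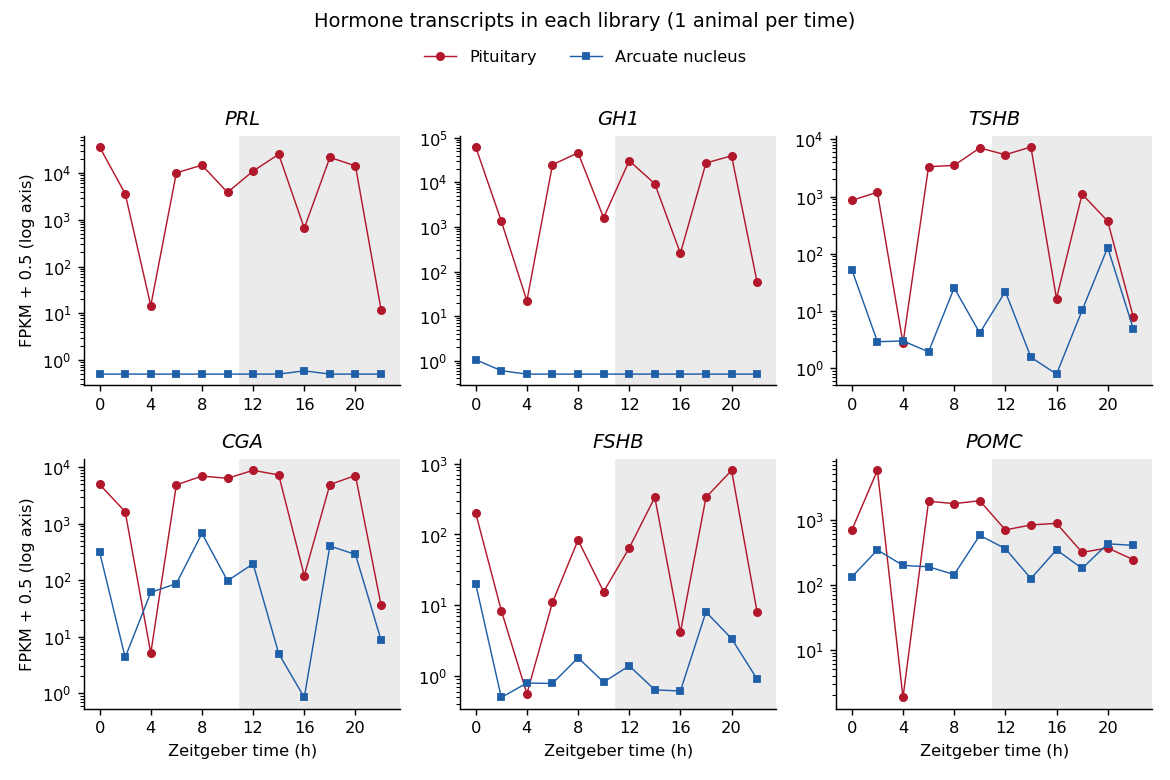
Levels of the 6 hormone genes in each library (FPKM + 0.5, logarithmic axis) against zeitgeber time in hours, with pituitary libraries as red circles, arcuate libraries as blue squares and the dark phase shaded grey. PRL and GH1 separate the tissues at every time point, and POMC overlaps between the tissues. For PRL, GH1, TSHB and CGA the pituitary libraries of ZT4, ZT16 and ZT22 lie below the other pituitary libraries.

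The transcription factors that specify pituitary cell types split between the tissues. Of 19 listed, 18 had a row and 16 were tested: 6 were called higher, 3 lower and 7 not, with a median log2 difference of 0.82 against -0.33 over all rows. Without the animals of ZT4, ZT16 and ZT22 the same list gave 10 higher and 2 lower, beside 2353 higher and 6166 lower of 14836 rows. POU1F1, which commits cells to the prolactin, growth hormone and thyrotropin lineages, had a pituitary range of 0.310 FPKM at ZT4 to 341 FPKM at ZT12 with a median of 206, and 11 of the 12 arcuate libraries were listed at 0. It was higher by 6.73 ± 0.81 (limma adjusted p = 6.4e-06) in 12 of 12 animals, with 16470 reads in the pituitary against 1. NEUROD4, a factor of the same lineages, was higher by 3.54 ± 0.52 in 12 of 12 animals, at a median of 17.9 FPKM against 0.122.

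LHX3, which acts early in the whole gland, was higher by 2.36, and TBX19 by 2.33, from a median of 28.4 FPKM against 3.23. LHX3 was not low in every arcuate library: it read 46.3 FPKM at ZT0, 30.5 at ZT20 and 28.1 at ZT8, the libraries in which arcuate CGA and CHGA were also high. The lower members were the neuroendocrine factors ISL1 (-2.58 ± 0.42) and INSM1 (-2.12 ± 0.30), which hypothalamic neurons also use, and SIX6 (-0.65), whose call was lost under either other scaling, under voom and without the low libraries. NR5A1, the factor of gonadotropes and of ventromedial hypothalamic neurons, differed by 1.31 ± 0.82 and did not pass (limma adjusted p = 0.18). Its value without the animals of ZT4, ZT16 and ZT22 was 2.86 ± 0.53, a call.

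Receptors through which hypothalamic factors act on pituitary cells were called higher for 4 of the 10 tested, lower for 1 and not for 5, of 13 listed and 11 with a row. The median log2 difference was 0.14 against -0.33 over all rows. GHRHR, the receptor for growth hormone-releasing hormone, had a pituitary range of 0.0729 FPKM at ZT4 to 67.8 FPKM at ZT12 and reached at most 0.0458 FPKM in the arcuate nucleus. It was higher by 4.43 ± 0.70 (limma adjusted p = 8.4e-05) in 12 of 12 animals. GNRHR, the receptor of gonadotropes, was higher by 3.63 ± 0.56, at a median of 20.3 FPKM against 0.0844.

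DRD2, through which dopamine restrains prolactin cells, was higher by 2.61 ± 0.44, and AVPR1B, the vasopressin receptor of corticotropes, by 2.36 ± 0.27. These receptors did not follow the same libraries. At ZT16 and ZT22 DRD2 stood at 14.5 and 7.96 FPKM, inside the 2.27 to 17.5 FPKM of the 9 pituitary libraries other than ZT4, ZT16 and ZT22, whereas GHRHR read 0.608 and 0.180 FPKM there. DRD2 is also a receptor of melanotropes. The ghrelin receptor GHSR was lower by 1.01 ± 0.39 (limma adjusted p = 0.036), and that call was lost without the animals of ZT4, ZT16 and ZT22 (-0.45, adjusted p = 0.32) and under either other scaling. The somatostatin receptors SSTR1, SSTR2, SSTR3 and SSTR5 were not called, with differences of -0.62 to 0.18.

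**Figure D2:**
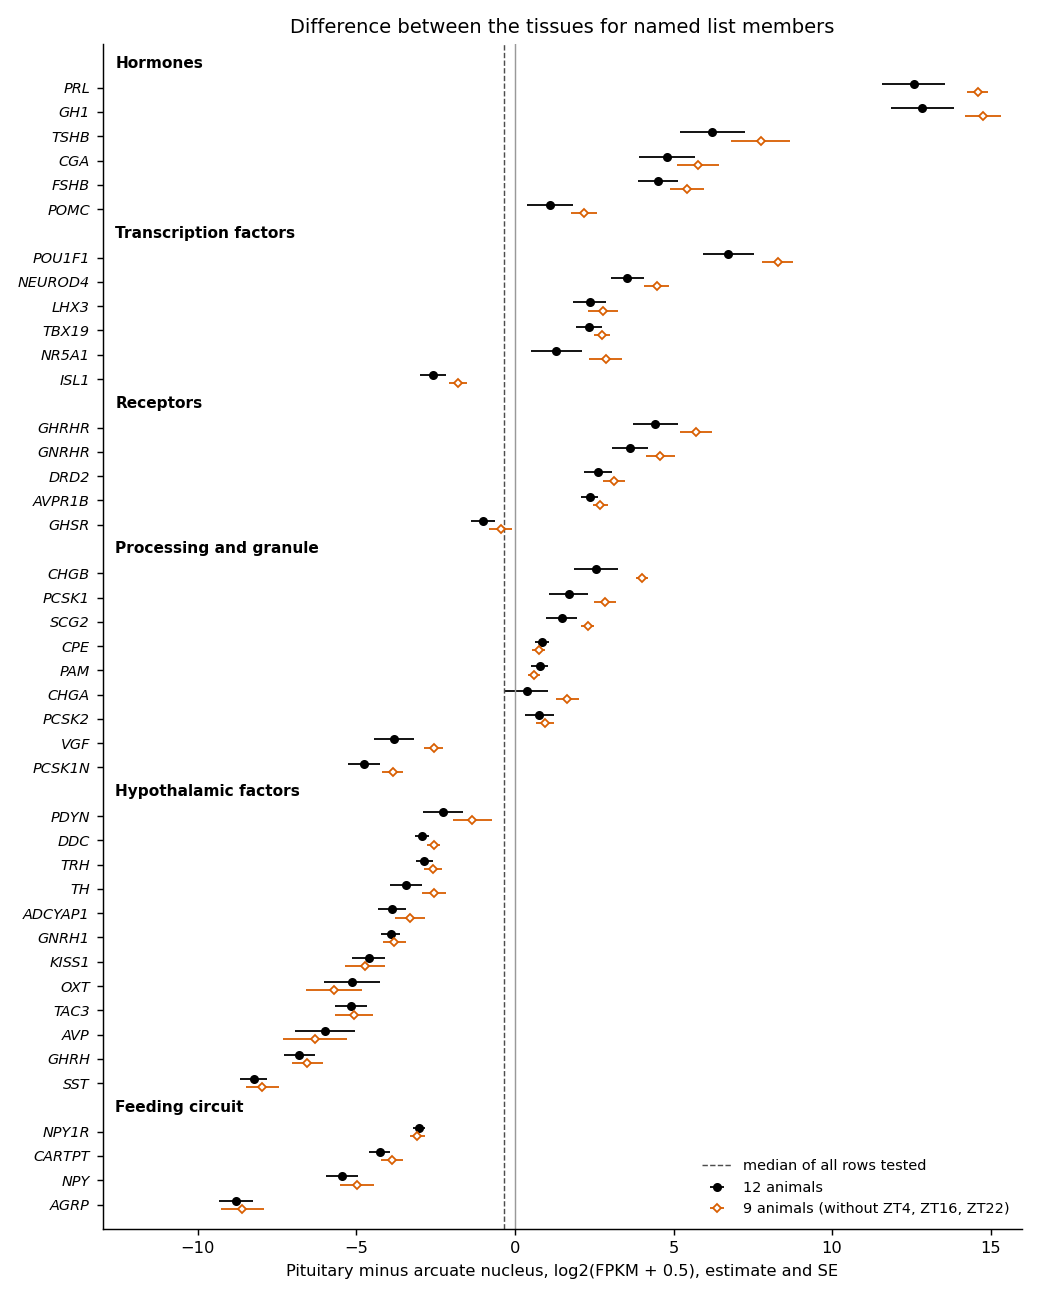
Log2 difference, pituitary minus arcuate nucleus on the log2(FPKM + 0.5) scale, with its SE, for genes from the lists; black points use 12 animals, orange diamonds the 9 animals other than ZT4, ZT16 and ZT22, and the dashed line is the median of all rows, -0.33. With 12 animals POU1F1, GHRHR and the hormones other than POMC lie farthest to the right, and AGRP, SST and GHRH farthest to the left. The difference of POMC moves from 1.12 to 2.17 when the 3 animals are left out.

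The factors that the hypothalamus sends to the pituitary were lower in the pituitary without exception among the 12 tested of 14 listed, with a median log2 difference of -4.26. CRH was too low to be tested. The inhibitor of growth hormone, SST, ranged from 53.3 FPKM at ZT8 to 896 FPKM at ZT2 in the arcuate nucleus. In 11 pituitary libraries it did not exceed 1.89 FPKM, and that of ZT10 held 27.8 FPKM. It was lower by 8.23 on the log2 scale (SE 0.43, limma adjusted p = 3.9e-09) in 12 of 12 animals. GHRH, which releases growth hormone, read 27.0 to 549 FPKM in the arcuate nucleus, highest at ZT22, and was listed at 0 in 9 pituitary libraries, with 12.1 FPKM at ZT10. Its log2 difference was -6.80 ± 0.49.

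The reproductive peptides KISS1 and TAC3, made together by arcuate neurons that pace gonadotropin-releasing hormone, differed by -4.61 and -5.18, and GNRH1 itself by -3.91. Arcuate KISS1 was 121 FPKM at ZT18 and 71.2 at ZT14 against 4.15 to 22.4 FPKM in the 10 other arcuate libraries. TH and DDC, the enzymes that make the prolactin inhibitor dopamine, differed by -3.43 and -2.92, and TRH, the releaser of thyrotropin, by -2.85. PDYN, the third peptide of the KISS1 neurons, was called lower at -2.26, but not without the animals of ZT4, ZT16 and ZT22 (-1.35, limma adjusted p = 0.078).

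Vasopressin and oxytocin, whose messages are made in hypothalamic neurons that send axons to the posterior pituitary, showed an exception. AVP was 1023 FPKM in the pituitary library of ZT2, above the 911 FPKM of the same animal's arcuate library, and 38.3 FPKM at ZT16. It was 0.196 to 4.72 FPKM in the other 10. OXT was 91.6 and 23.4 FPKM at ZT2 and ZT16 and at most 5.73 FPKM elsewhere. Over 12 animals AVP differed by -5.99 ± 0.94 and OXT by -5.14 ± 0.88. In the same library of ZT2, SST, GHRH and AGRP were listed at 0. In that of ZT10 it was instead SST, AGRP (23.4 FPKM), TAC3 (16.5 FPKM), GHRH and KISS1 (4.46 FPKM) that stood above every other pituitary library.

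Genes of the arcuate feeding circuit were lower in the pituitary for each of the 11 tested of 12 listed, with a median log2 difference of -3.55. AGRP, the appetite-driving antagonist of the melanocortin receptors, was 103 FPKM at ZT8 to 2222 FPKM at ZT18 in the arcuate nucleus. It was listed at 0 in 9 pituitary libraries. The log2 difference was -8.78 ± 0.54 (limma adjusted p = 1.5e-08), the lowest of any list gene. NPY, made by the same neurons, was 159 to 1873 FPKM in the arcuate nucleus, again highest at ZT18, and 0.368 to 67.1 FPKM in the pituitary, and differed by -5.46 ± 0.50. CARTPT, another peptide gene of the circuit, differed by -4.27, from a median of 55.7 FPKM in the arcuate nucleus to 1.62 FPKM. Receptors of the circuit showed smaller differences: HTR2C -3.85, NPY1R -3.02, MC3R -2.08, MC4R -1.84 and the leptin receptor LEPR -1.57. TBX3 was called at -1.87, a call lost under voom.

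Machinery for cutting and packing hormones was present in both tissues and split by gene. Of 15 listed, 14 were tested: 5 were called higher, 3 lower and 6 not, with a median log2 difference of 0.34. Without the animals of ZT4, ZT16 and ZT22 there were 9 higher and 3 lower, beside 2353 higher and 6166 lower of 14836 rows. The granule proteins CHGB and SCG2 were higher by 2.56 ± 0.70 and 1.47 ± 0.50. CHGB ran at 793 to 3813 FPKM in 9 pituitary libraries and at 6.72, 146 and 106 FPKM at ZT4, ZT16 and ZT22, against a narrow 128 to 198 FPKM in the arcuate nucleus. PCSK1, the convertase that makes adrenocorticotropin from POMC, was higher by 1.69 ± 0.61 (limma adjusted p = 0.026), with 0.0481 to 135 FPKM against 4.43 to 17.3. Its call was lost when any of 6 single animals was left out and at a pseudocount of 0.1.

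PCSK2, the convertase that goes on to make melanotropic peptides in the intermediate lobe, was highest in other libraries than PCSK1. It read 65.1 FPKM at ZT2, 75.8 at ZT16 and 75.7 at ZT22, against 11.4 to 28.5 FPKM in 8 libraries and 0.292 at ZT4. In those 3 libraries PCSK1 was 8.69, 2.09 and 9.51 FPKM, against 36.8 to 135 FPKM in the 8. PCSK2 was not called with 12 animals (0.77 ± 0.45, limma adjusted p = 0.15). PAX7, the factor of melanotropes, was also highest in these 3 libraries, at 1.43, 1.71 and 2.18 FPKM, and at most 0.557 FPKM in the other pituitary libraries. The lower members were PCSK1N, an inhibitor of PCSK1 (-4.76 ± 0.51, 403 to 888 FPKM in the arcuate nucleus against 0.986 to 103), VGF (-3.82 ± 0.62) and PTPRN2 (-1.39 ± 0.25).

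Genes of inhibin and activin signalling tune follitropin within the gland. Of 8 listed, 7 were tested: 2 were called higher and 4 lower. Over all rows tested, 16.6% were called higher and 43.3% lower. The list's median log2 difference was -0.43, against -0.33 over all rows. INHBB, the beta-B subunit, was higher by 1.32 ± 0.23 in 12 of 12 animals, at a median of 9.74 FPKM against 2.98. INHA, the subunit that turns the dimer into inhibin, differed by -1.97 ± 0.22, at 2.84 FPKM against 13.6. TGFBR3, a co-receptor of inhibin, was higher by 1.34 and FSTL3, which binds activin, lower at -2.03. INHBA (-0.94) and ACVR2A (-0.43) were also called lower and lost the call under median-of-ratios scaling. Quantile scaling turned ACVR2A to 0.11.

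Receptors for feedback hormones included a pair of paralogs that differed in opposite directions. THRB, the thyroid hormone receptor through which thyroid hormone restrains TSHB, was higher by 1.95 ± 0.26 (limma adjusted p = 1.7e-05) in 12 of 12 animals, with 2.44 to 25.1 FPKM against 0.813 to 5.61. THRA, the other thyroid hormone receptor, was lower at -1.35 ± 0.15 (limma adjusted p = 3.6e-06) in 12 of 12 animals, with 34.9 to 92.3 FPKM against 99.3 to 185. The tissues did not overlap for THRA, and THRA was above THRB in every pituitary library. The glucocorticoid receptor NR3C1 was higher by 1.05, a call lost without the animals of ZT4, ZT16 and ZT22 (0.82, limma adjusted p = 0.054). GHR was lower at -0.88, a call lost under either other scaling. In all, 2 of 7 tested were called higher and 2 lower, of 10 listed, beside 16.6% and 43.3% of all rows. Of the pars tuberalis and thyroid hormone genes, TSHR was lower at -2.68 and CRYM, a thyroid hormone-binding protein of pituicytes and tanycytes, at -3.15 ± 1.10, and EYA3 was not called. CRYM was 1532, 464, 2247 and 1021 FPKM at ZT2, ZT10, ZT16 and ZT22 and 1.28 to 83.6 FPKM in the other 8 pituitary libraries. Its call was lost under voom (adjusted p = 0.062) and without the animal of ZT0 or that of ZT12.

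Markers of other cell types moved with the tissue. All 6 astrocyte and all 6 oligodendrocyte genes tested were called lower in the pituitary, with median log2 differences of -3.14 and -3.66. Without the animals of ZT4, ZT16 and ZT22 these medians were -3.74 and -4.23. The summed astrocyte level was 9.39 to 228 FPKM in 11 pituitary libraries and 5160 FPKM at ZT4, against 358 to 5778 FPKM in the arcuate nucleus. Neuron markers were lower for 9 of 11, among them GAD1 (-4.33), SLC32A1 (-3.98) and GAD2 (-3.57), the genes of inhibitory neurons. SNAP25 (-1.09) and SYT1, parts of the vesicle machinery that endocrine cells share, were called lower and lost the call without the animals of ZT4, ZT16 and ZT22 and under quantile scaling.

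Of the 6 microglial genes 5 were called lower, 3 under either other scaling and 6 without the animals of ZT4, ZT16 and ZT22. Their summed level depended on the library. It was 344, 170, 126 and 129 FPKM in the pituitary at ZT2, ZT4, ZT16 and ZT22. The other pituitary libraries held 7.05 to 63.6 FPKM, against 59.9 to 144 FPKM in the arcuate nucleus. Over all rows, 5131 were called lower after median-of-ratios scaling, 4275 after quantile scaling and 6166 without those animals. No endothelial or fibroblast gene was called lower with 12 animals. VWF of endothelium, at -0.48 with 12, was called without those 3 (-0.69, limma adjusted p = 0.031) and without ZT2 and ZT10 as well (-0.84, 0.0070). EMCN and PECAM1 of endothelium and DCN and COL1A2 of fibroblasts were higher, by 1.22, 1.01, 1.73 and 1.20. Of the stem and folliculostellate genes, ALDH1A2 was higher by 2.41 in 12 of 12 animals, while SOX2 (-2.84), SOX9 (-1.22) and S100B (-5.13), which glia also express, were lower.

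**Figure D3:**
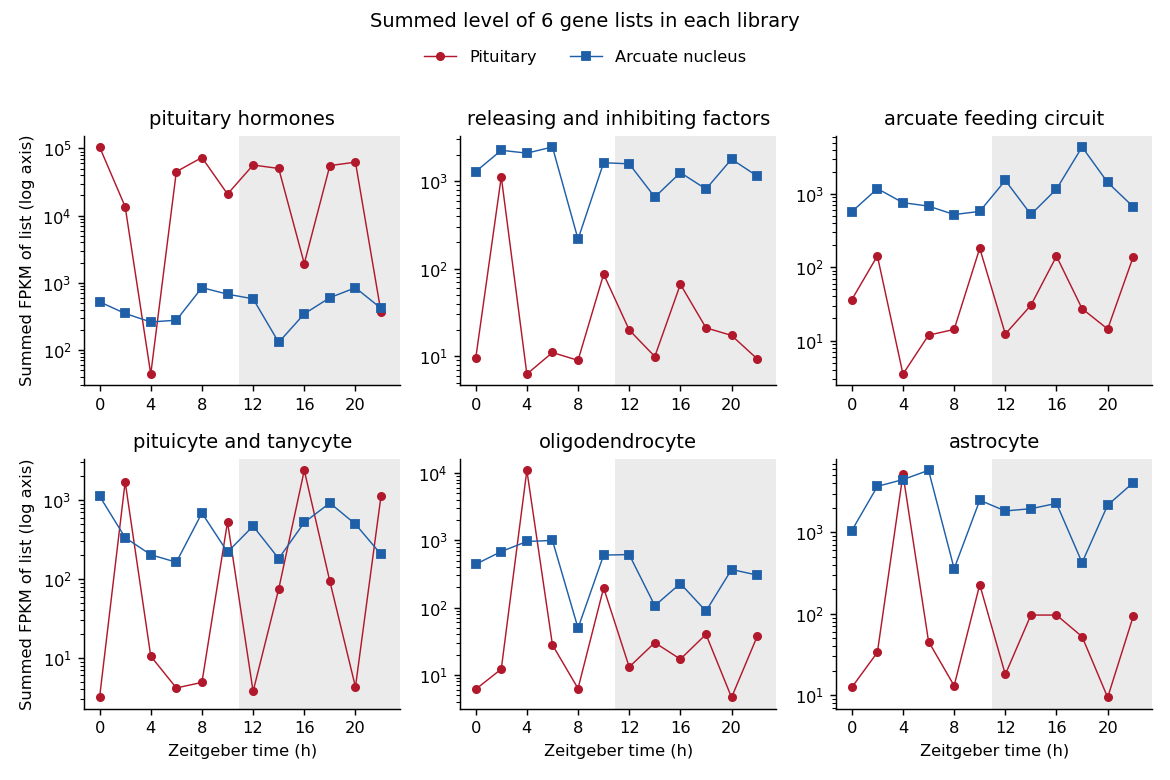
Summed FPKM of gene lists in each library (logarithmic axis) against zeitgeber time in hours, with pituitary libraries as red circles, arcuate libraries as blue squares and the dark phase shaded grey. The hormone sum drops and the oligodendrocyte sum rises to 10970.3 FPKM in the pituitary library of ZT4, and the pituicyte and tanycyte sum of the pituitary exceeds that of the same animal's arcuate nucleus at ZT2, ZT10, ZT16 and ZT22.

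Outside the lists, the 10 largest differences toward the pituitary among genes averaging at least 5 FPKM included SLPI, a secreted protease inhibitor (4.50 ± 0.50), HEPACAM2 (4.38), KRT23, an epithelial keratin (3.74), AGR2 (3.51), PDGFD (3.49), AP1M2, a sorting adaptor of epithelia (3.46), PRR15L (3.44) and MUC15, a mucin (3.43). NDUFA1, a subunit of respiratory complex I that all tissues use, differed by 4.45 ± 0.35 in 12 of 12 animals, with 48.3 to 118 FPKM against 0 to 15.8 FPKM and no overlap. ELSPBP1 was listed at 0 in all 12 arcuate libraries and at ZT8 and ZT18 in the pituitary, with 229.6 FPKM at ZT0 and 163 FPKM at ZT20. Its 4740 pituitary reads put it at least 1240-fold higher per assigned read, against a floor of 3 reads over the 12 arcuate libraries.

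Toward the arcuate nucleus the 10 were CTXN1 (-6.23), SLC25A18 (-6.06), FXYD7 (-6.02), GP1BB (-5.83), AGT, the angiotensin precursor made by astrocytes (-5.66), GALP, a peptide of arcuate neurons (-5.66), MT3, a brain metallothionein (-5.63), NGB, neuroglobin (-5.51), TTC9B (-5.42) and FAM159B (-5.36). GP1BB was 27.6 to 58.0 FPKM in the arcuate nucleus and at most 0.532 FPKM in the pituitary.

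In all, 8919 of 14898 rows (59.9%) were called between the tissues, 2471 higher and 6448 lower in the pituitary. With a difference of at least 2-fold as well, 638 were higher (4.28%) and 4196 lower (28.2%). The division depended on scaling. Of the rows called, 27.7% were higher in the pituitary with the deposited values, 44.8% after median-of-ratios scaling of the 24 libraries and 56.2% after quantile scaling, as the median difference over all rows moved from -0.33 to -0.06 and 0.12. Negative differences of about this size have no fixed direction: that of ACVR2A, -0.43, came to -0.16 and 0.11. The small positive difference of DNAJB1, 0.34, grew to 0.64 and 0.54. The hormone list gave 5 higher of 6, and the feeding circuit 11 lower of 11, under each scaling. The transcription factors gave 8 higher and 2 lower after median-of-ratios scaling and 10 and 2 after quantile scaling, and the feedback receptors 3 and 1, then 5 and 1. Over all rows the counts were 4172 higher and 5131 lower, then 5475 and 4275. Of 5 heat shock genes tested, HSPB1 (-3.84) and HSPH1 (-0.81) were lower and DNAJB1 higher with the deposited values. The call of DNAJB1 was lost without the animals of ZT2, ZT4, ZT10, ZT16 and ZT22 (0.23, limma adjusted p = 0.068).

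Between the light and dark phases, no row was called within the pituitary, and the lowest adjusted p among 13020 rows tested was 0.107 (limma), shared by 103 rows. At an unadjusted p under 0.05 there were 1982 rows (15.2%), 1710 of them higher in the light phase and the other 272 higher in the dark phase. No hormone gene was among them. The 3 libraries that stood apart lie on both sides: ZT4 in the light phase, ZT16 and ZT22 in the dark phase. Leaving them out, 0 rows were called and 1747 had an unadjusted p under 0.05. With voom weights 0 were called and 1782 had one. Without the libraries of ZT2 and ZT10 as well, the 7 that remained gave 219 calls among 12515 rows (1.75%), 215 of them (1.72%) higher in the light phase. Those 7 were ZT0, ZT6 and ZT8 against ZT12, ZT14, ZT18 and ZT20, a choice made after seeing the data.

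The highest-ranked genes of the light phase were MRPS2, a mitochondrial ribosomal protein, GON7, part of a tRNA-modifying complex, and HIST1H2AC, a histone. MRPS2 read 10.2, 17.1, 7.89, 9.50, 8.10 and 7.50 FPKM from ZT0 to ZT10 and 3.31, 3.70, 4.11, 2.27, 1.96 and 1.91 FPKM from ZT12 to ZT22. The phases did not overlap, and the log2 difference was 1.63 ± 0.25 (limma p = 1.9e-05, adjusted p = 0.107). GON7 was 9.89 to 13.997 FPKM from ZT0 to ZT10 and 2.87 to 7.85 FPKM from ZT12 to ZT22, and HIST1H2AC 10.3 to 25.1 and 2.97 to 6.66. In the arcuate nucleus of the same animals MRPS2 ran at 12.1 to 21.0 FPKM in the light phase and 12.6 to 29.7 FPKM in the dark phase, with overlap. Over all rows tested, 485 (3.73%) had light-phase libraries wholly above the dark-phase ones and 15 (0.115%) the reverse.

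A shared component of library differences moved with this contrast. It was taken from 11965 genes in 61 other tissues, where it held 30.4% of the variance around tissue means. Pituitary libraries scored 0.19 to 1.92 from ZT0 to ZT10 and -1.88 to -0.09 from ZT12 to ZT22, without overlap. The other 61 tissues of the same animals ran the same way on average, at 0.018 to 0.87 from ZT0 to ZT10, 0.052 at ZT12 and -0.94 to -0.32 from ZT14 to ZT22, so the pattern was not the pituitary's alone. The arcuate libraries scored -0.41 to 0.56 and -0.25 to 0.39, with overlap. With this score as a covariate 584 rows had an unadjusted p under 0.05, and none was called.

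Immediate early genes, which cells switch on within minutes of a stimulus, had the lowest median difference of the 22 lists over the 12 libraries, toward the dark phase. Of 12 tested, 6 had an unadjusted p under 0.05, all 6 lower in the light phase, and 1 of 12 was higher in it. The median log2 difference, light minus dark, was -1.54 against 0.01 over all rows. Without the libraries of ZT4, ZT16 and ZT22 it shrank to -0.52, with the hormone genes lower at -0.74, and without ZT2 and ZT10 as well it was -1.11, with the pituicyte and tanycyte genes lower at -1.58. FOS was 17.4, 52.4, 1.93, 39.3, 23.0 and 6.61 FPKM from ZT0 to ZT10 and 72.4, 52.3, 135, 76.2, 99.0 and 119.6 FPKM from ZT12 to ZT22. Only ZT2 and ZT14 met, and the difference was -2.49 ± 0.63 (limma p = 0.0017, adjusted p = 0.116).

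NR4A2, an orphan nuclear receptor of the same response, was 0.981 to 4.49 FPKM in the light phase and 5.58 to 54.9 FPKM in the dark phase, without overlap, and differed by -2.20 ± 0.50 (limma p = 0.00072). EGR1, NR4A1 and FOSB differed by -2.66, -2.57 and -2.03. The highest value of NR4A2 (54.9 FPKM) and of NR4A1 (298 FPKM) came from ZT16, and the lowest of FOS, EGR1, NR4A1 and NR4A2 from ZT4. Without the libraries of ZT4, ZT16 and ZT22, 2 of 9 tested had an unadjusted p under 0.05. In the 7 libraries left without ZT2 and ZT10 too, FOS (-1.52), EGR1 (-1.49) and NR4A1 (-2.39) were called, at limma adjusted p of 0.043, 0.031 and 0.031. That fit sets ZT0, ZT6 and ZT8 against ZT12, ZT14, ZT18 and ZT20. The libraries were left out after seeing the data, and ZT2 held the highest FOS of the light phase. These calls are therefore a description and not a test.

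Immediate early genes also differed between the tissues. FOS, EGR1, NR4A2 and NR4A1 were higher in the pituitary by 2.66, 2.58, 2.13 and 1.91, NR4A2 in 12 of 12 animals, and DUSP1 by 1.55. IER2 (-2.59), KLF4 (-1.16) and JUN (-0.87) were lower. JUN lost the call under either other scaling and KLF4 under quantile scaling, which left 1 lower and 8 higher. Over all 14898 rows, quantile scaling called 4275 lower and 5475 higher. The summed level of the list was 67.5 to 160 FPKM in the arcuate libraries, whereas the pituitary ran from 54.3 to 623 FPKM in the light phase and from 262 to 1212 FPKM in the dark phase.

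Genes that glucocorticoid hormones induce leaned the other way. Of 12 tested, 11 were higher in the light phase, with a median log2 difference of 0.51 against 0.01 over all rows. An unadjusted p under 0.05 was found for 6, of which 5 were higher in the light phase. The sixth, DUSP1, also an immediate early gene, was lower. Over all 13020 rows, 1982 (15.2%) had such a p, and 1710 of those were higher in the light phase as well. MT2A, a metallothionein, was 147, 99.1, 175, 166, 96.3 and 61.4 FPKM from ZT0 to ZT10 and 30.0, 18.6, 27.9, 60.0, 26.4 and 1.52 FPKM from ZT12 to ZT22. The phases stood apart by little at ZT10 and ZT18, and the difference was 2.59 ± 0.65 (limma p = 0.0015, adjusted p = 0.116). KLF15 was 2.26 to 9.38 FPKM in the light phase and 0.427 to 1.93 FPKM in the dark phase, a difference of 1.58 ± 0.34 (limma p = 0.00051). CEBPD, ZBTB16 and TSC22D3 differed by 1.35, 1.09 and 0.63. FKBP5, another target, did not (0.26 ± 0.39, limma p = 0.51). Without the libraries of ZT4, ZT16 and ZT22, 5 of 12 had an unadjusted p under 0.05, beside 1747 of 12789 rows. In that fit 10 were higher in the light phase. The arcuate nucleus of the same animals leaned the same way: the list's mean log2 level there was 3.81 to 4.78 in the light phase and 3.07 to 4.02 in the dark phase.

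**Figure D4:**
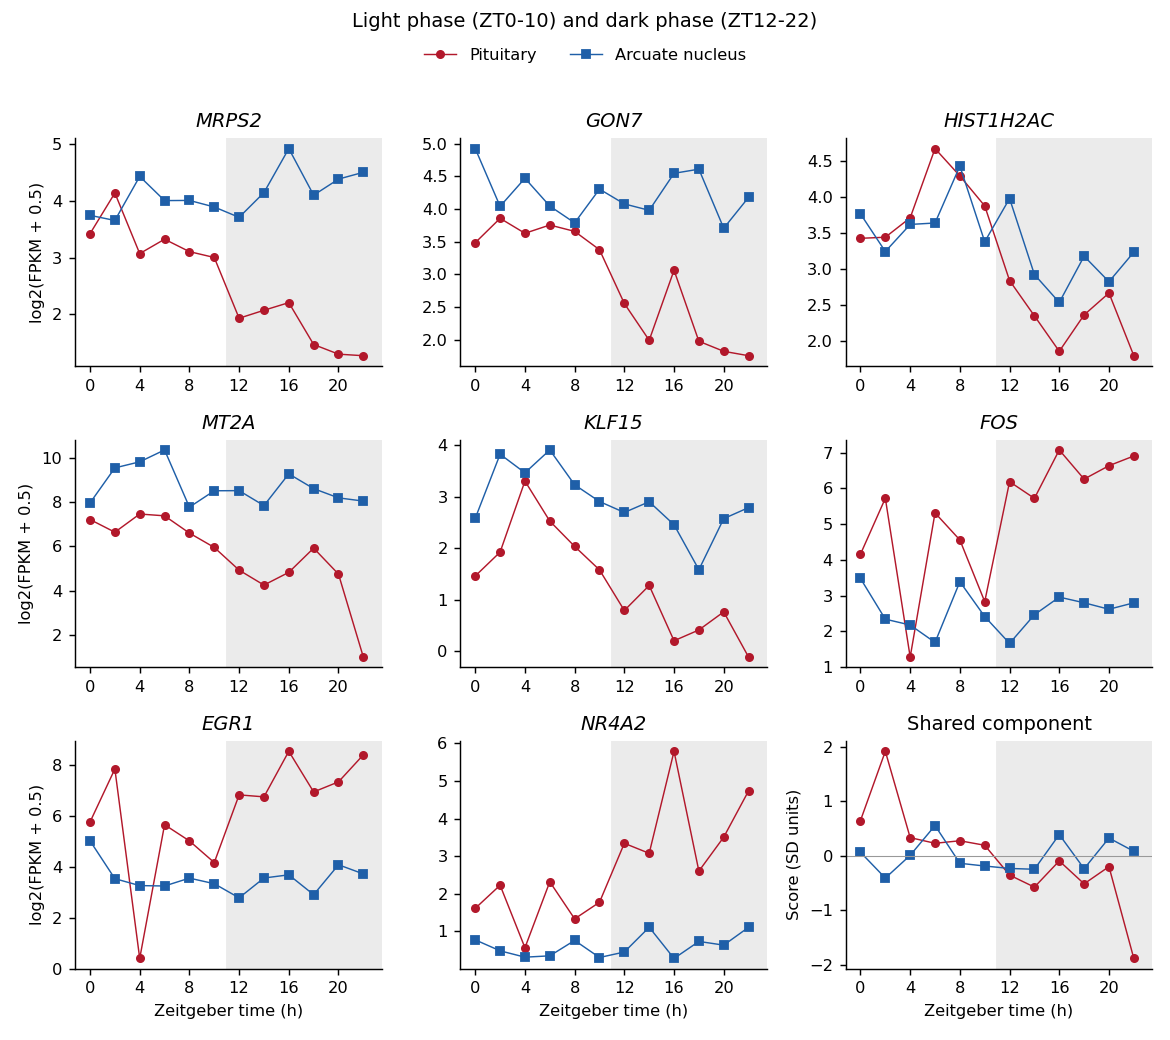
Levels of 8 genes, log2(FPKM + 0.5), and the score of the shared library component, against zeitgeber time in hours, for pituitary (red circles) and arcuate nucleus (blue squares), with the dark phase shaded grey. In the pituitary MRPS2, GON7, HIST1H2AC, MT2A and KLF15 are lower in the dark phase and NR4A2 higher, each without overlap, and the component score is above 0 in the light phase and below 0 in the dark phase in the pituitary, while the arcuate scores fall on both sides of 0 in each phase.

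Of the dark-phase genes outside the lists, TOB1, an antiproliferative protein, was 106 to 192 FPKM in the dark phase and 40.6 to 100.4 FPKM in the light phase (-1.15 ± 0.22, limma p = 0.00016), and the related BTG2 differed by -1.92 ± 0.52. The others by the same rule were TRIB1 (-1.03), LTBP1 (-1.03), RMST_9 (-1.01), FAM3C (-0.86), HIF1A (-0.74) and ZNF451 (-0.55). In the light phase they were SCAND1 (2.31), MPST (1.69), EXOSC5 (1.60), SNX21 (1.48) and SYS1 (1.27). HSPB1, a small heat shock protein, was higher in the light phase without overlap (1.75 ± 0.38, limma p = 0.00045), at 1.30 to 7.02 FPKM against 0 to 0.846. None of these passed adjustment, as no row did.

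The hormone genes had wide intervals in this contrast. PRL differed by 0.11 ± 2.12 and GH1 by -0.06 ± 2.14. TSHB differed by 1.13 ± 2.11 and FSHB by -2.30 ± 1.54. POMC differed by 0.30 ± 1.54, with its lowest library, ZT4, and its 4 highest all in the light phase. Among the 9 libraries left without ZT4, ZT16 and ZT22, POMC was 694 to 5767 FPKM in the light phase and 315 to 833 FPKM in the dark phase, a difference of 1.92 ± 0.54 (limma p = 0.0049, adjusted p = 0.18). FSHB, at 7.92 to 199.9 and 63.9 to 804 FPKM, differed by -3.20 ± 1.01 (limma p = 0.0096, adjusted p = 0.21). Neither passed adjustment. ZT4, ZT16 and ZT22 were set apart by low levels of the hormone genes, a list that includes POMC and FSHB. Both differences therefore describe the 9 remaining libraries and do not test the genes.

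A 24 h cosine fitted to the 12 pituitary libraries called no row, with a lowest limma adjusted p of 0.827 and 676 rows (5.19%) at an unadjusted p under 0.05. HIST1H2AC ranked first, with an amplitude of 1.15 on the log2 scale and a peak at 6.1 h. Without ZT4, ZT16 and ZT22, the fit called TSPO and MRPL57, with amplitudes of 1.41 and 1.38 and peaks at 2.76 and 3.43 h, and 3003 of 12789 rows had an unadjusted p under 0.05. In that fit TSHB had an amplitude of 1.82 ± 0.27 with a peak at 10.3 h (limma adjusted p = 0.0501), FSHB 2.75 ± 0.59 with a peak at 17.9 h (0.092) and POMC 1.56 ± 0.34 with a peak at 5.4 h (0.10). None of these 3 was called. Low levels of the hormone genes set the left-out libraries apart. These 3 fits therefore describe the remaining libraries and are no test of the genes.

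The core clock genes, which cycle in most tissues, gave no call in this fit, which does not show that their levels were constant. Their median amplitude was 0.40 on the log2 scale, beside 0.32 over all rows. Of 18 tested, only DBP had an unadjusted p under 0.05 (amplitude 0.51, peak at 1.9 h, limma p = 0.043). ARNTL, the activator of the clock, was 5.97 FPKM at ZT2, 8.73 at ZT22, 11.8 at ZT20 and 14.8 at ZT4, and 21.97 to 31.9 FPKM in the other 8 pituitary libraries. In the arcuate nucleus it ran from 7.56 FPKM at ZT4 to 28.0 FPKM at ZT14. PER1 was 3.76 to 9.25 FPKM in 11 pituitary libraries and 52.2 FPKM at ZT2, whereas in the arcuate nucleus it was 43.3 FPKM at ZT0 and 9.06 to 10.6 FPKM from ZT10 to ZT18. Between the tissues NR1D2 (1.27) and NFIL3 (0.61) were higher in the pituitary and PER1 (-0.98), DBP (-0.75) and BHLHE41 (-0.64) lower, the last lost under several settings, and 13 of 18 were not called. Median-of-ratios scaling gave 7 higher and 2 lower, and quantile scaling 12 and 2. Over all 14898 rows, those called higher rose in the same way, from 2471 to 4172 and 5475.

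**Figure D5:**
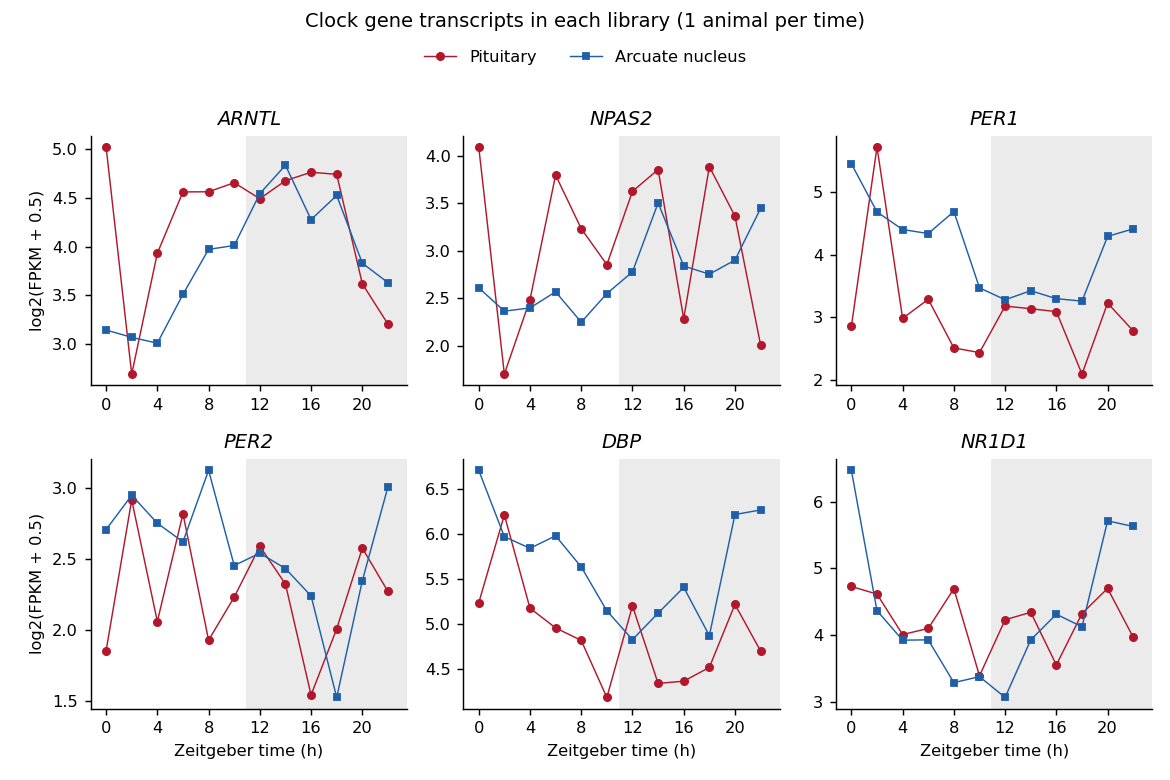
Levels of 6 clock genes, log2(FPKM + 0.5), against zeitgeber time in hours in pituitary (red circles) and arcuate nucleus (blue squares), with the dark phase shaded grey. ARNTL of the arcuate nucleus is highest at ZT14 and PER1 and DBP lowest in the dark phase, while the pituitary values scatter, with PER1 at 52.2 FPKM at ZT2.

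Whether the light-to-dark difference itself differed between the tissues was tested as an interaction, with the animal as a block. No row was called, the lowest limma adjusted p was 0.191, and 2030 rows (13.6%) had an unadjusted p under 0.05. MRPS2 had the largest such difference of the genes the rule named, 1.97 ± 0.34 (limma p = 5.4e-05), followed by FGFBP3 (1.93), FAM50B (1.85), MRPL57 (1.73) and AK1 (1.58). Of the immediate early genes 6 of 12 had an unadjusted p under 0.05, with a median of -1.78, FOS, EGR1 and NR4A2 among them; that median was -0.89 without the animals of ZT4, ZT16 and ZT22. Of the glucocorticoid-induced genes 4 of 12 did, and their median was -0.02, beside 0.08 over all rows. Of the hypothalamic factors 5 of 12 did, among them KISS1 (2.58 ± 0.81) and TRH (1.43), 2 genes that were near 0 in most pituitary libraries. Fitted without the block, the interaction called 12 rows, MRPS2 among them.

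Levels of 7 pairs of related genes were compared across pituitary libraries: 4 of a hormone and a receptor on the cells that make it, PRL with GH1, TSHB with CGA, and POMC with the convertase gene PCSK2. With 12 libraries the 3 low ones form a cluster of their own, so correlations are given over the other 9 only. GH1 and GHRHR varied together (Pearson r = 0.96, Spearman rho = 0.88, exact permutation p = 0.00010, adjusted over 7 pairs 0.00071), and r was 0.92 without the 2 libraries farthest from the median of GH1. PRL and GH1 (r = 0.81, rho = 0.65, exact permutation, adjusted p = 0.034) did not hold without the 2 farthest libraries (0.03), so that relation rests on them. TSHB and TRHR (r = 0.80, rho = 0.67, exact permutation, adjusted p = 0.034) came to 0.55 without the 2 farthest, and TRHR was at most 3.09 FPKM. The rank correlation passed adjustment only for GH1 and GHRHR. TSHB with CGA, PRL with DRD2, and POMC with AVPR1B or PCSK2 did not pass. The points share library depth and library content, whose part was not tested.

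Across animals, the level of a factor in the arcuate nucleus was set against the hormone it controls in the pituitary, in 4 pairs over the same 9 animals. None passed adjustment. TH with PRL had r = -0.43 and rho = -0.70 (exact permutation, adjusted p = 0.42 and 0.087), and r was -0.90 without the 2 animals farthest from the median of TH. SST with GH1 had r = -0.51 and rho = -0.75 (0.42 and 0.087), and r was -0.30 without the 2 farthest. For GHRH with GH1 r was -0.13, and for TRH with TSHB it was 0.38.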

How the data were processed

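Polyadenylated RNA of 12 pituitary and 12 arcuate nucleus samples was sequenced from stranded libraries, per the labels' protocols. The authors deposited FPKM values; STAR, featureCounts and DESeq2 are named in the submitters' processing notes, without versions, and the genome build is not given in the sources used here. Dividing each deposited FPKM by a step per gene and per library gave whole reads for 100% of 12436040 values (tolerance 0.01 reads), and these reads gave the depth. Of 29202 rows, 16091 carried a symbol of their own; 20 of 211 list genes had no such row.

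Rows with a mean of at least 1 FPKM were fitted as log2(FPKM + 0.5) with limma 3.58.1 in R 4.3.3, with a variance trend and Benjamini-Hochberg adjustment over all rows. The tissue comparison and the interaction had the animal as a block, because the labels give both samples of a time point to 1 animal; the correlation of paired deviations over 11965 genes was -0.13 to 0.38. A 24 h cosine and sine were fitted within the pituitary. Scripts were tested on simulated data. Correlations used permutation, two-sided, in scipy 1.17.1: exact over 9 libraries and with 100000 resamples over 12. By the labels each group holds 12 animals with 1 sample each, and p-values measure the spread between them. The arcuate library of ZT4 matched the animal of ZT6, so its pair may not come from 1 animal.

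Every member of 22 lists could be named, and outside them the 10 largest called differences in each direction between tissues, the 8 smallest p in each direction between phases, and the 5 smallest p of the interaction and of the 24 h fit, each at a mean of 5 FPKM or more. The members and lists were chosen with earlier results of these data known. CGB, SFRP2 and PRLHR were looked up after values were seen. Alternatives were 2 pseudocounts, 2 filters, median-of-ratios and quantile scaling, no variance trend, voom on recovered reads, no replicate block, the component score or astrocyte level as a covariate, and each animal left out. The voom fit also took its library sizes from median-of-ratios scaling of the reads. Fits without the animals of ZT4, ZT16 and ZT22, or of ZT2 and ZT10 as well, were chosen after seeing the data. Low levels of the hormone genes set ZT4, ZT16 and ZT22 apart. Some members of the lists are not reported here.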

Additional observations from a re-analysis of the deposited data

Results flagged for a closer look

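In 4 of 30 groups of 6 libraries checked, 1 library lay far from the others, and each time it was the light-phase pituitary library of ZT4, at the low end. On the log2(FPKM + 0.5) scale it read 3.86 for PRL, 0.89 for POMC, 1.45 for TSHB and 2.36 for CGA. The gap to the next library was 0.706, 0.737, 0.732 and 0.799 of the group's range, above Dixon's 95% critical value for 6 samples. Chance sets apart about 1 group in 20. The 4 genes share 1 library, so they are not independent. The same library held 4014 FPKM of GFAP and 347 FPKM of MOG, and the part of its content in the light-phase averages was not tested beyond the refits without it.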

How the results depend on the processing

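The direction of calls between the tissues depended most on scaling. Rows called higher in the pituitary numbered 2471, then 4172 after median-of-ratios scaling, 5475 after quantile scaling, 4311 with voom and 2166 to 2866 when leaving out 1 animal; 488 were higher in 12 of 12 pairs. Rows called lower numbered 6448, then 4275 after quantile scaling, and 2596 were lower in 12 of 12 pairs. Without the replicate block 9007 rows were called against 8919 with it, and the interaction gave 12 calls against 0; leaving out 1 animal gave 0 in each case for the interaction. Light against dark gave 0 calls, 0 to 2 when leaving out 1 animal (GON7 and ECH1 without ZT16) and 219 without ZT2, ZT4, ZT10, ZT16 and ZT22. The 24 h fit gave 0, then 0 to 2 when leaving out 1 animal (NDUFS7 and PEX16 without ZT22) and 2 without ZT4, ZT16 and ZT22. Of 7 pairs of related pituitary genes 6 passed by Pearson's r with 12 libraries and 3 with 9. Of 4 arcuate and pituitary pairs, TH with PRL passed by rank with 12 animals (rho = -0.80, permutation, adjusted p = 0.012; r = -0.58, adjusted p = 0.22) and none with 9. Among values called in at least 1 of the 2 fits, signs turned for ACVR2A (0.11) and HSPD1 (0.33) under quantile scaling, for SNAP25 (0.069) without 5 animals, and for POMC with AVPR1B (r = -0.13) over 9 libraries. The cause was not tested. Over the genes named between the tissues, 4836 refits kept direction and call, 167 lost the call, 121 gained it and 3 turned. In genes called in neither fit, signs also turned, among them NEFM and SLC17A6 without 5 animals and HSP90AA1 and FST under either other scaling.

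The deposited depth limits low genes: TRHR, PAX7 and CRH rest on few reads. With 6 animals a phase and 1 per time point, the absence of calls between phases, in the 24 h fit and in the interaction does not show an absence of change.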
